A study of Mus musculus with 2 samples.

Results

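Cells with MHC class II transcripts were counted in a pool of sorted mouse blood stem cells. Barcodes with at least 500 UMIs (unique molecular identifiers, each marking 1 captured mRNA molecule) of which mitochondrially encoded UMIs made up at most 20%, were kept as cells. A kept cell was a member if it held at least 2 UMIs summed over Cd74, H2-Aa, H2-Ab1 and H2-Eb1. This gave 427 members of 3402 kept cells, 12.6% (95% Clopper-Pearson interval 11.5 to 13.7%). The other kept cells were 482 with 1 class II UMI and 2493 with 0, and the members were compared with the cells at 0.

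The pool joined DAPI- GFP+ bone marrow cells from Mds1-GFP/+ Flt3-Cre mice, sorted on the reporter alone, with wild-type LT-HSCs (long-term haematopoietic stem cells) sorted as DAPI- Lin- cKit+ Sca+ CD48- CD150+. All marrow was first depleted of cells carrying B220, Gr1, Ter119, CD4 or CD8. Flt3-Cre drives the recombinase from Flt3, a receptor gene active in multipotent progenitors, and the reporter cassette is flanked by loxP sites. Single-cell 3' libraries were made in inDrops droplets from 2 aliquots of this 1 pool, with no other biological sample. Cells are not replicates, so nothing below could be tested, and every interval is a 95% interval of counting error only. Aliquot 1 held 1640734 UMIs in 1574 kept cells, with a median of 946.5 UMIs, and aliquot 2 held 4027333 UMIs in 1828 kept cells, with a median of 2071.5. The 2 files shared 461 barcode names, 55 of them kept in both, and no name was a member in both.

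MHC class II molecules are pairs of an alpha and a beta chain that carry peptides from endocytosed protein to the cell surface, where CD4 T cells read them. H2-Aa and H2-Ab1 encode the 2 chains of mouse I-A, H2-Eb1 encodes the beta chain of I-E, and Cd74 encodes the invariant chain that fills the groove until peptide is loaded. B cells, dendritic cells and macrophages are the professional users of this pathway, and class II transcription is set by a complex of RFX and NF-Y factors, bound at conserved promoter elements, with the coactivator CIITA.

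Promoter sequence is shown because the member rule rests on genes that share a known promoter architecture. The 150 bases before the RefSeq start are given for both rule genes found in the promoter table, and for H2-DMb1, which the rule did not use. H2-Aa occupies chromosome 17 from 34282744 to 34287823 on the minus strand of GRCm38, H2-Eb1 from 34305867 to 34316674 on the plus strand and H2-DMb1 from 34153072 to 34160230 on the plus strand, with H2-Ab1 between them from 34257689 to 34269419. Capitals mark GATTGG or its reverse complement, the letters of a Y box to which NF-Y binds, and CTAGNAACTGATGATGCT, the longest stretch that the H2-Eb1 and H2-DMb1 windows share with at most 1 mismatch (N), which was looked for after these windows were chosen.
H2-Aa (GRCm38.p6, chr17:34287824-34287973, minus strand): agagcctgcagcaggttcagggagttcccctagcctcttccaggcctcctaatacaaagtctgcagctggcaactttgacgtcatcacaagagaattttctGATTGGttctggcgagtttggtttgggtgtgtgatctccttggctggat
H2-Eb1 (GRCm38.p6, chr17:34305717-34305866, plus strand): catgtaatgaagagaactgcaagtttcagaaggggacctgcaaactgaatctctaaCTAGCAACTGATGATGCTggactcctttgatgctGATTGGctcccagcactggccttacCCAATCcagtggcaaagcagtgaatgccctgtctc
H2-DMb1 (GRCm38.p6, chr17:34153041-34153190, plus strand): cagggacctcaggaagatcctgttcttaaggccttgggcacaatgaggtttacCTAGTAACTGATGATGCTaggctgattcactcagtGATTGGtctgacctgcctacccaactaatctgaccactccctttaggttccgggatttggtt
GATTGG began 49 bases before the start of H2-Aa, 60 before that of H2-Eb1 and 62 before that of H2-DMb1. On either strand it was found in 3595 of 32851 promoter windows of this length, 10.9%. The longer stretch began 94 bases before the start of H2-Eb1 and 97 before that of H2-DMb1, and these were the 2 windows of all 32851 that held it. These distances are from RefSeq starts. The GENCODE position of H2-DMb1 begins at 34153072, inside its window, and the marked stretches lie after that start. A match describes these letters and does not show a bound factor.

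H2-Aa was the most abundant of the rule genes. Over all kept cells it gave 1030 of the 2208 class II UMIs, ahead of Cd74 with 617, H2-Eb1 with 393 and H2-Ab1 with 168. Among the 427 members, H2-Aa was found in 326 cells (76.3%), Cd74 in 233 (54.6%), H2-Eb1 in 186 (43.6%) and H2-Ab1 in 79 (18.5%). UMIs of at least 2 of these genes were present in 285 members (66.7%), and 18 members held all 4.

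The number of class II UMIs per cell fell off without a gap at the threshold. Just outside it were the 482 cells with 1 UMI and just inside it 176 members with 2 UMIs, then 80 with 3 and 53 with 4, up to 25 in 1 cell. Members made up 8.77% of aliquot 1 (138 of 1574, 7.42 to 10.3%) and 15.8% of aliquot 2 (289 of 1828, 14.2 to 17.6%), the deeper library. When every cell was thinned to 500 UMIs, 149 cells still met the rule, 3.94% of aliquot 1 and 4.76% of aliquot 2, and 14.4% of the cells of each aliquot held a class II UMI. The thinned counts had a variance of 1.90 times their mean.

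**Figure D1:**
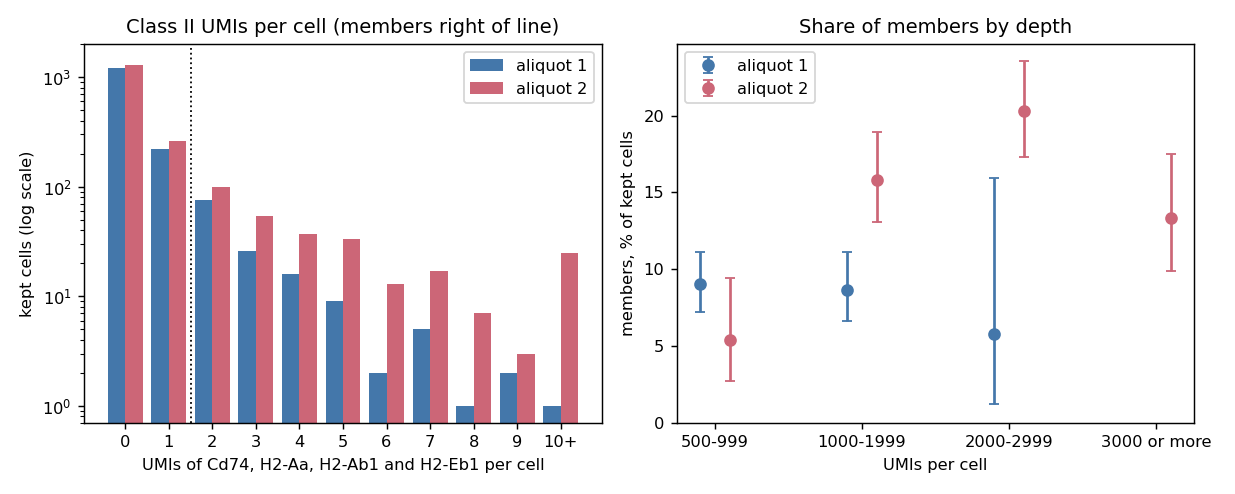
Left: kept cells (log scale) by class II UMIs per cell, for each aliquot, with members right of the dotted line. Right: members as a percentage of kept cells by UMIs per cell, with 95% Clopper-Pearson intervals, for bins of at least 20 cells. Members were 9.02%, 8.68% and 5.77% of the 3 depth bins of aliquot 1, and 5.37%, 15.8%, 20.3% and 13.3% of the 4 bins of aliquot 2.

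UMIs of the rule genes tended to lie in the same cells, though 142 members (33.3%) held UMIs of only 1 of these genes. The same genes define the members, so the ratios below describe how their UMIs were shared among kept cells. They are not separate support for the rule. Cells with an H2-Aa UMI held Cd74 at 377 CPM (UMIs scaled to a total of 1e6), against 51.6 CPM in depth-matched cells without one, a ratio of 7.31 (5.41 to 10.1; 538 cells in each set). Cells with an H2-Eb1 UMI held Cd74 at 528 CPM, against 67.3 CPM in matched cells without one, a ratio of 7.84 (5.41 to 11.7). The smallest ratio over all pairs was 2.74 (1.98 to 3.82), for H2-Aa in cells with an H2-Ab1 UMI.

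Barcodes under 200 UMIs, which may hold free RNA, carried class II transcripts too. What these barcodes hold was not tested. Kept cells held the 4 genes at 397 CPM (367 to 429) in aliquot 1, against 198 CPM (72.6 to 431; 6 UMIs) in 201 barcodes under 200 UMIs. In aliquot 2 kept cells stood at 386 CPM (367 to 406), against 270 CPM (228 to 318) in 6291 such barcodes. In aliquot 2, H2-Ab1 made up 8.29% of the class II UMIs of kept cells and 21.1% of those of the low barcodes. H2-Aa made up 44.8% and 33.1%. In 28 cells with at least 10 UMIs of the neutrophil list, 1 class II UMI was found (11.6 CPM, 0.29 to 64.6). It was held by 1 cell (3.57%), and the median depth of the 28 cells was 2517.5 UMIs. Of all kept cells, 26.7% held a class II UMI, at a median depth of 1418.5. In the 132 cells with at least 3 neutrophil list UMIs, 102 class II UMIs were found (301 CPM, 246 to 366), in 29 of the cells at a median depth of 2243.5, with 47.1 CPM in aliquot 1 and 338 CPM in aliquot 2.

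For the comparison of transcriptomes, each member was paired within its aliquot with the cell at 0 class II UMIs of nearest depth. Both sets of 427 cells had a median of 1859 UMIs, mitochondrial shares had medians of 5.10% in members and 5.01% in comparison cells, and genes detected had medians of 979 in members and 989 in comparison cells. UMIs were summed over each set with the 4 rule genes left out, and a gene was counted as higher or lower at a ratio of CPM of at least 1.5 either way, given at least 30 UMIs over both sets. Of 7724 genes measured in this way, 8.82% were higher and 9.55% lower in members. The median log2 ratio over all of them was 0.00 when rounded, and the counts of each list below are to be read against these shares. The membership rule was applied to these cells, so all ratios are descriptions.

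LT-HSC genes were higher in members. Of the 26 genes of the list, 24 were measured, 8 were at least 1.5-fold higher and none was lower, 21 had a ratio above 1 and 16 had one in both aliquots. Over all measured genes, 22.3% had a ratio above 1 in both aliquots. The median log2 ratio of the list was 0.48, with 0.42 in aliquot 1 and 0.50 in aliquot 2. The list summed to 9762 CPM in members and 7033 CPM in comparison cells of aliquot 1, and to 7889 CPM and 5921 CPM in aliquot 2, a ratio of 1.34 over both (1.29 to 1.39). Per 1000 UMIs, the median member held 8.52 LT-HSC list UMIs and the median comparison cell 5.81. Among the 149 cells that met the rule after thinning to 500 UMIs, 3 of 19 measured LT-HSC genes were higher and 1 was lower, against 11% of all genes higher. Their comparison cells were drawn from 2913 cells with 0 class II UMIs after thinning, of which 420 had held at least 1 before it and 133 were members.

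Fgd5, a guanine nucleotide exchange factor gene whose activity marks mouse LT-HSCs, stood at 64.0 CPM in members and 14.2 CPM in comparison cells of aliquot 1. In aliquot 2 it stood at 52.8 CPM in members and 13.6 CPM in comparison cells. The ratio was 4.00 (2.03 to 8.59), from 44 UMIs in 28 members and 11 UMIs in 10 comparison cells. Aliquot 1 rested on 9 UMIs in members and 2 in comparison cells, and aliquot 2 on 35 and 9. Against all 2493 cells at 0 class II UMIs the ratio was 2.96 (1.99 to 4.35). Fgd5 lies on chromosome 6 from 91978878 to 92076004, plus strand.

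Ly6a encodes Sca-1, the antigen used to sort the wild-type cells, and lies on chromosome 15 from 74994877 to 74998031, minus strand. It stood at 462 CPM in members and 199 CPM in comparison cells of aliquot 1, and at 376 CPM and 226 CPM in aliquot 2, a ratio of 1.76 (1.46 to 2.13). Ltb, the gene of lymphotoxin beta, stood at 228 CPM in members and 121 CPM in comparison cells of aliquot 1, and at 198 CPM and 93.6 CPM in aliquot 2, a ratio of 2.06 (1.57 to 2.73). For each gene the summed level was higher in members in both technical aliquots, and 22.3% of all measured genes also had a ratio above 1 in both. Single cells of the 2 sets overlapped. After thinning to 500 UMIs, Ly6a was found in 16.6% of members and 9.37% of comparison cells, and Ltb in 10.1% of members and 5.39% of comparison cells.

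The other higher members of the list were Ctnnal1 at 2.23 times, Gimap6 at 1.88, Mecom at 1.60, Hlf at 1.55 and Ifitm1 at 1.54. Mecom and Hlf encode transcription factors required by or restricted to the most primitive stem cells, and their levels were 213 CPM for Mecom and 1074 CPM for Hlf in members of aliquot 1, against 121 CPM for Mecom and 839 CPM for Hlf in comparison cells. Ctnnal1 rested on aliquot 2, with a ratio of 1.00 in aliquot 1 and 2.80 in aliquot 2. Procr, the gene of the endothelial protein C receptor EPCR, was at 1.41 times (1.11 to 1.80). Meis1, a homeobox gene of stem and progenitor cells, was on the other side at 0.779 times (0.658 to 0.922), Tek at 0.894 and Esam at 0.974, and the last 2 lay above 1 in aliquot 1. Hoxb5, whose reporter marks LT-HSCs, fell short of the UMI minimum with 20 UMIs in members and 8 in comparison cells. Gimap6 and Ifitm1 belong to gene clusters of similar copies, and the sources used here do not say how reads were shared among copies.

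**Figure D2:**
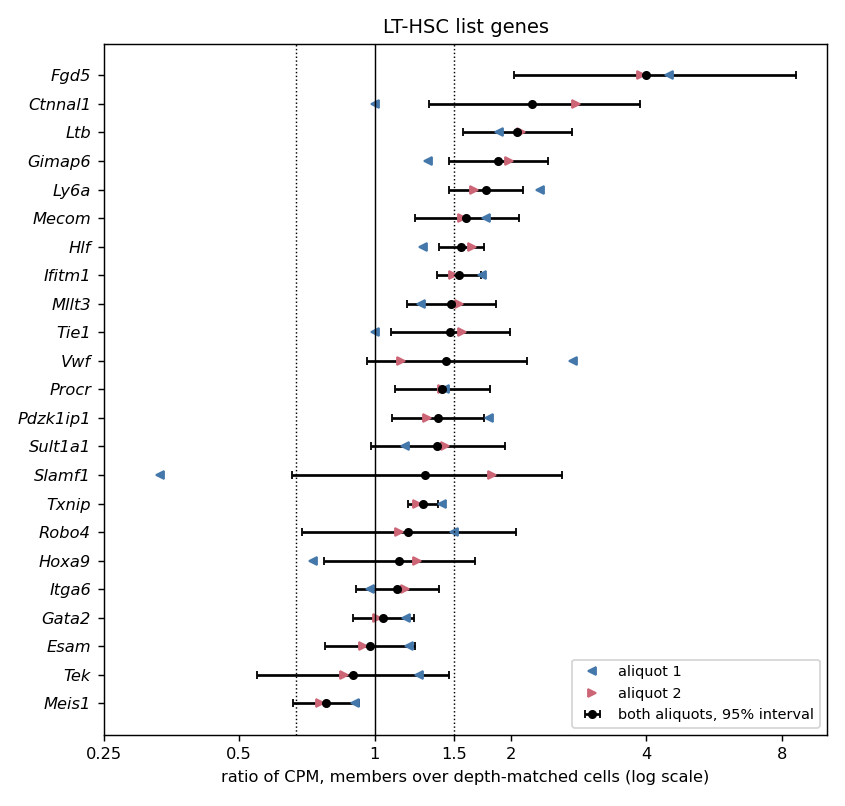
Ratio of CPM (log scale), members over depth-matched cells with 0 class II UMIs, for 23 of the 24 measured LT-HSC list genes. Black points are both aliquots with 95% counting intervals, triangles the single aliquots, and dotted lines the 1.5-fold limits. The range runs from 0.779 for Meis1 to 4.00 for Fgd5, and 20 of the genes drawn lie above 1.

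The median LT-HSC difference was smaller among cells low in cell cycle transcripts. Cells with at most 2 UMIs of the S phase and G2 and M phase lists per 1000 UMIs were 212 of the 427 members (49.6%) and 175 of the 427 comparison cells (41.0%). Among such cells alone, rematched on depth, the list's median log2 ratio was 0.24, and 3 of 22 measured genes were higher, against 9.84% of all genes. Those 3 were Fgd5 at 3.73 times (1.67 to 9.42), Ly6a at 1.61 (1.26 to 2.07) and Esam at 1.58. Ltb was at 1.32, Hlf at 1.45 and Mecom at 1.45. Of the 22 genes, 15 had a ratio above 1, against 21 of 24 without the restriction. Mllt3 went from 1.48 to 0.869 times, Sult1a1 from 1.38 to 0.939 and Pdzk1ip1 from 1.38 to 0.995. This restriction was added after the values were seen. It also left fewer members and drew new comparison cells, and what moved the values was not tested.

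Of the other class II genes, 5 of 10 were measured, 2 were higher and none was lower, with a median log2 ratio of 0.30. H2-DMb1, a chain of the H2-M molecule that exchanges the invariant chain fragment for peptide, was at 2.04 times (1.24 to 3.44), with 51 UMIs in 42 members and 25 UMIs in 22 comparison cells. In aliquot 1 it stood at 64.0 CPM in members and 56.9 CPM in comparison cells, and in aliquot 2 at 63.4 CPM and 25.7 CPM, so the difference lay mostly in aliquot 2. After thinning, it was found in 2.11% of members and 2.81% of comparison cells, and no order is read from those shares. Its partner H2-DMa was at 1.17 times (0.908 to 1.52).

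Rfx5, the DNA-binding subunit of the RFX complex, was at 1.85 times (1.14 to 3.08), with 135 CPM in members and 35.6 CPM in comparison cells of aliquot 1 and 46.8 CPM and 33.2 CPM in aliquot 2. Its companion Rfxap was at 1.23 times. H2-Oa, a chain of the H2-O molecule that inhibits H2-M, was at 0.680 times (0.345 to 1.31). Aliquot 1 gave 0.125 and aliquot 2 gave 0.941. Ciita, the coactivator gene, was found at 0 UMIs in members and 2 in comparison cells, a level at which no difference was detectable. Among low-cycle cells, H2-DMb1 was at 3.36 times and Rfx5 at 0.90 times, so the value of Rfx5 turned under that restriction.

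Proteases of the endosomal pathway were on the higher side, with all 7 measured genes of that list above 1 and 2 higher. Ctss, the gene of cathepsin S, which trims the invariant chain in professional antigen-presenting cells, was at 3.0 times (1.57 to 6.12), with 39 UMIs in 25 members and 13 UMIs in 5 comparison cells. Its level depended on the comparison cells. The ratio was 9.75 without the 1 cell that held most of its UMIs, about 10 in aliquot 1 and 2.42 in aliquot 2. Against all 2493 cells at 0 class II UMIs it was at 1.42 times (0.972 to 2.05), and among low-cycle cells at 1.27 times (0.66 to 2.50). Ctsh was at 2.33 times (3.50 without 1 cell), Ctsb at 1.23 and the cathepsin inhibitor gene Cst3 at 1.07. Against all cells at 0 class II UMIs Ctsh was at 1.49 times (0.938 to 2.28), and among low-cycle cells at 1.13. Of the list, 1 of 9 measured genes was higher without depth matching and 0 of 6 among low-cycle cells.

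MHC class I genes, which present peptides from inside the cell, mostly had a ratio above 1. This held for 17 of 20 measured genes, with a median log2 ratio of 0.24. The list summed to 1.19 times and the protease list to 1.21 times, so no order of these lists is read. Only 2 class I genes were higher, Erap1 at 1.69 times and H2-T22 at 1.74, against 8.82% of all measured genes. Erap1 was at 1.00 in aliquot 1. H2-K1 was at 1.22 times (1.16 to 1.29), H2-D1 at 1.24 (1.13 to 1.36) and B2m, the shared light chain, at 1.20 (1.15 to 1.25). B2m stood at 6193 CPM in members and 5135 CPM in comparison cells of aliquot 1, and at 5150 CPM and 4298 CPM in aliquot 2. Class I heavy chain genes are near-identical copies, and their single values are uncertain. Of 7 costimulation genes, only Cd274, the gene of PD-L1, was measured, at 1.27 times over both aliquots, 2.67 in aliquot 1 and 1.05 in aliquot 2.

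Genes of the interferon gamma response, the pathway that raises class II in many cell types, were also on the higher side. Of 15 measured genes, 4 were higher and none was lower, 12 had a ratio above 1, and the median log2 ratio was 0.47. Igtp stood at 242 CPM in members and 78.2 CPM in comparison cells of aliquot 1, and at 205 CPM and 116 CPM in aliquot 2, a ratio of 1.93 (1.48 to 2.53). Members exceeded comparison cells in each aliquot. Iigp1 was at 2.06 times and Gbp7 at 1.70, and all 3 are GTPase genes of the interferon response with similar copies. The receptor gene Ifngr1 was at 0.816 times (0.652 to 1.02). Among low-cycle cells Igtp was at 1.63 times (1.12 to 2.40) and Gbp7 at 2.07 times (1.40 to 3.09). Other genes of the list did not stay high in those cells, with Ifngr1 at 1.02 times, Gbp3 at 0.810 and Jak2 at 0.758. Of 8 measured type I interferon genes, 3 were higher, Isg15 at 2.17 times, Ifit2 at 1.67 and Oasl2 at 1.58 (1.00 in aliquot 1), with a list median of 0.20.

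Defining markers of professional antigen-presenting cells were scarce in members, though some had more UMIs there than in comparison cells. Over 16 defining markers of B cells, dendritic cells, monocytes and macrophages, picked from the fixed lists after their values were seen, 30 of 427 members (7.03%) and 29 of 427 comparison cells (6.79%) held any UMI. These came to 43 UMIs in members and 31 in comparison cells. Cd79a, Ccr9 and C1qa were at 0 in members, and Ms4a1, Pax5, Itgax, Clec9a, Siglech and Fcgr1 had 1 UMI each. Zbtb46, a transcription factor gene of conventional dendritic cells, had 14 UMIs in members and 4 in comparison cells, Cd209a 5 and 0, and Csf1r, the macrophage growth factor receptor gene, 5 and 1. At least 2 UMIs of the 16 markers were held by 7 members and 2 comparison cells. Some other genes of these lists and of the costimulation list also had more UMIs in members. Irf7, which also belongs to the type I interferon list, had 21 UMIs in members and 6 in comparison cells (3.50 times, 1.37 to 10.6), the lysosomal gene Cd68 7 and 0, the costimulation gene Cd83 7 and 0, Irf8 5 and 2, and Ly86 3 and 0, all under the minimum of 30.

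Summed over the full lists, ratios lay between 0.659 and 1.3. The B cell list summed to 29 UMIs in members and 44 in comparison cells, 0.659 times (0.398 to 1.08), and 4 immunoglobulin genes of it had no feature of that name. The conventional dendritic cell list summed to 153 UMIs in members and 142 in comparison cells (1.08 times, 0.852 to 1.36), led by genes that stem and progenitor cells also express, such as Flt3. The plasmacytoid dendritic cell list summed to 341 UMIs in members and 262 in comparison cells (1.3 times, 1.1 to 1.53), of which Tcf4 gave 174 and 128 and Bst2 134 and 116. Siglech, a defining surface lectin of plasmacytoid dendritic cells, had 1 UMI in members and 4 in comparison cells.

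The monocyte and macrophage list summed to 400 UMIs in members and 498 in comparison cells, 0.803 times, and to 1.03 times without the 1 comparison cell that held 111 of these UMIs. Of the members, 1 held 70 of the 400, 58 of them from Lyz2, and without both cells the ratio was 0.850 (0.732 to 0.987). All 4 lists together summed to 923 UMIs in members and 946 in comparison cells, 0.975 times (0.890 to 1.07). They stood at 1.1 times (1.0 to 1.21) without that comparison cell and at 1.02 times (0.923 to 1.12) without it and the member with most list UMIs. Measured genes numbered 1 in the B cell list, 3 in the conventional dendritic, 2 in the plasmacytoid dendritic and 2 in the monocyte and macrophage list. None of them passed 1.5-fold in either direction, against 8.82% of all measured genes higher and 9.55% lower. So few genes cannot show that these markers did not differ.

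**Figure D3:**
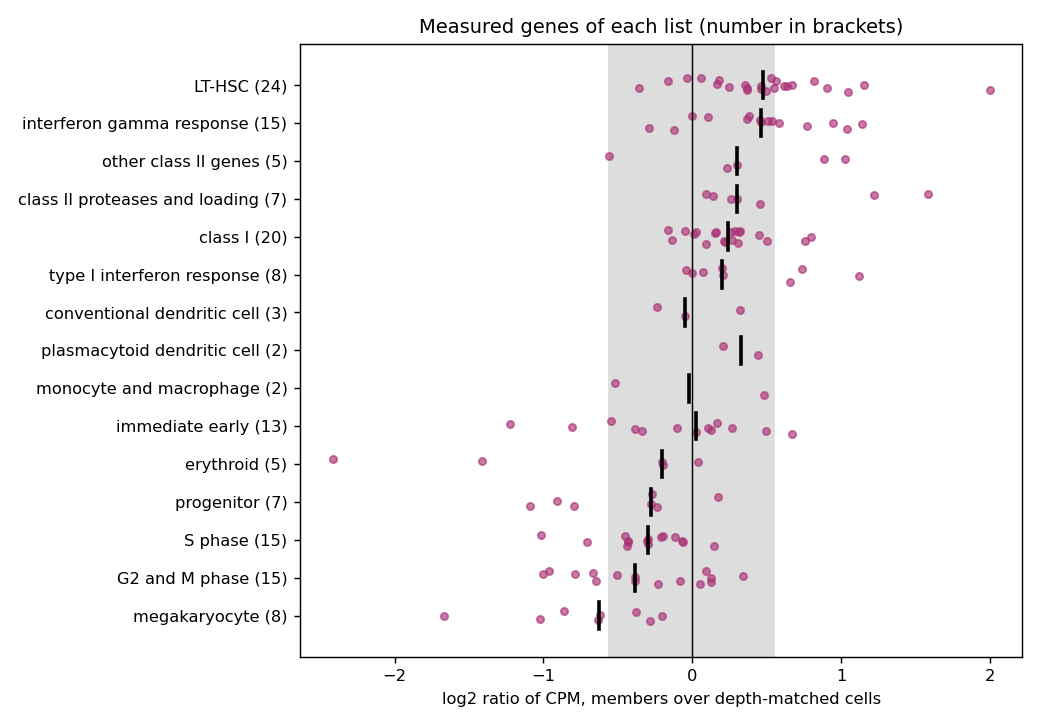
Log2 ratio of CPM, members over depth-matched cells with 0 class II UMIs, for each measured gene of 15 lists, with the list median as a black bar. The grey band spans the lowest to the highest decile of all 7724 measured genes. LT-HSC and interferon gamma genes have medians of 0.48 and 0.47, and megakaryocyte genes of -0.63. B cell, costimulation, neutrophil, basophil and T cell lists, with few measured genes or 1 dominant cell, are left out.

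Single cells at the top of the class II range held LT-HSC transcripts, as did 99.3% of all members and 98.1% of comparison cells. The 10 highest held 14 to 25 class II UMIs, the lowest being 1 of 3 cells with 14. Of these 10, 9 held 5.14 to 11.3 LT-HSC list UMIs per 1000. That range spans the medians of 8.52 in all members and 5.81 in comparison cells. The other one had 1 LT-HSC list UMI among 1240, with 15 class II, 6 monocyte list and 4 dendritic list UMIs. Another of the 10 held 19 monocyte and macrophage list UMIs, 16 of them from Lyz2, beside 20 LT-HSC list UMIs. The library does not tell whether such a barcode held 1 cell or 2.

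Transcripts of megakaryocyte genes were lower in members. All 8 measured megakaryocyte genes had a ratio below 1, 5 were lower and the median log2 ratio was -0.63. Itga2b, the gene of CD41, stood at 42.7 CPM in members and 149 CPM in comparison cells of aliquot 1, and at 48.3 CPM and 151 CPM in aliquot 2, a ratio of 0.314 (0.212 to 0.455). The summed level of members was below that of comparison cells in each aliquot, and 29.7% of all measured genes also had a ratio below 1 in both. Itga2b lies on chromosome 11 from 102453297 to 102470122, minus strand, and was at 0.32 times among low-cycle cells and 0.288 times against all cells at 0 class II UMIs. Plek was at 0.492 times, Pf4 at 0.550, F2r at 0.646 and Treml1 at 0.650. Gata1, the erythroid and megakaryocyte transcription factor gene, had 6 UMIs in members and 32 in comparison cells, and the water channel gene Aqp1 was at 0.375 times (0.219 without 1 cell). The erythroid list as a whole moved less, with 2 of 5 measured genes lower and none higher and a median log2 ratio of -0.20, which was 0.41 in aliquot 1 and -0.47 in aliquot 2. Car2, a carbonic anhydrase gene, was at 0.873 times (0.805 to 0.947) and the globin gene Hbb-bt at 1.03.

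Progenitor genes were on the lower side as well, with 3 of 7 measured genes lower and none higher. Plac8, a marker of early myeloid and lymphoid precursors, stood at 135 CPM in members and 384 CPM in comparison cells of aliquot 1, and at 134 CPM and 266 CPM in aliquot 2, a ratio of 0.469 (0.370 to 0.593). It was at 0.39 times among low-cycle cells. Cd52 was at 0.533 times and Il12a at 0.576, each with an interval that includes 1, and Cd52 was at 3.0 times in aliquot 1 and 0.448 in aliquot 2. Cd34, a sialomucin gene low in mouse LT-HSCs, was at 0.824 times (0.671 to 1.01). Dntt, the lymphoid terminal transferase gene, had 0 UMIs in members and 14 in comparison cells, all in 2 cells. Flt3 was at 0.850 times (0.522 to 1.38).

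Cell cycle genes were lower. Of 15 measured G2 and M phase genes 5 were lower and none higher, with a median log2 ratio of -0.39, and of 15 measured S phase genes 2 were lower, with a median of -0.30. Hmgb2, a chromatin gene raised in dividing cells, stood at 839 CPM in members and 1458 CPM in comparison cells of aliquot 1, and at 530 CPM and 915 CPM in aliquot 2, a ratio of 0.578 (0.515 to 0.649). Top2a, the gene of the mitotic topoisomerase, was at 0.513 times, Mki67 at 0.630, Nusap1 at 0.50 and Ccnb2 at 0.638 (0.278 in aliquot 1). The S phase genes Rrm2 and Ung were at 0.493 and 0.612 times. Above 1 lay the G2 and M phase genes Tubb4b at 1.09 times and Cenpf at 1.07. The S phase gene Mcm4 was at 1.11 times, with 0.444 in aliquot 1 and 1.41 in aliquot 2.

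Of the remaining lists, 6 of 7 measured neutrophil genes were lower in members, but 1231 of the 2162 neutrophil UMIs of the comparison cells came from 1 cell. Nkg7, a granule gene of cytotoxic lymphocytes, was found in 7 members and 41 comparison cells, 0.121 times (0.0465 to 0.265). Gata3, a transcription factor gene active in LT-HSCs as well as T cells, was at 1.67 times (1.22 to 2.30). The basophil and mast cell list had no measured gene, with 9 UMIs in members and 18 in comparison cells. The immediate early genes, which mark stress of cell isolation, had a median log2 ratio of 0.03, with 1 of 13 higher and 2 lower. The aliquots went opposite ways, with medians of 0.23 in aliquot 1 and -0.22 in aliquot 2.

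Among the 10 genes with the highest ratios by a fixed rule were Fgd5, Ctss, Plxna1, Diablo, Zfp532, Clk4, Dock1, Trio and Parp12, from 4.00 down to 2.50 times. Choosing the highest of 5132 ranked genes overstates them. Single aliquots moved some by over 1.5 times, with Clk4 at 11 in aliquot 1 and 2.28 in aliquot 2, Diablo at 1.5 and 3.33, Dock1 at 1.67 and 3.18, and Trio at 1.33 and 3.0. Plxna1, a semaphorin receptor gene, was at 2.88 times and Parp12, an interferon-induced ADP-ribosyltransferase gene, at 2.50.

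The 10 lowest were Mcee, Serpinb1a, Spc25, Orc6, Itga2b, Mtr, Cdca8, Erlin1, Pbdc1 and Slc14a1, at 0.269 to 0.395 times. Spc25 at 0.308 times and Cdca8 at 0.322 encode parts of the machinery that attaches and monitors chromosomes at mitosis, and Orc6 at 0.310 times a subunit of the origin recognition complex. Slc14a1 encodes a urea transporter. Mcee was at 0.714 times in aliquot 1 and 0.200 in aliquot 2, Mtr at 0.158 and 0.405, and Pbdc1 at 0.231 and 0.454.

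The number of class II UMIs per cell did not order the LT-HSC values strictly. Each class was compared with its own depth-matched cells at 0 UMIs. The summed LT-HSC list was at 1.24 times (1.19 to 1.29) in cells with 1 class II UMI, 1.25 (1.18 to 1.33) with 2, 1.41 (1.32 to 1.51) with 3 to 4 and 1.33 (1.24 to 1.42) with 5 or more. The G2 and M phase list was at 0.782, 0.995, 0.646 and 0.490 times in the same order. Its own levels were 2322, 2182, 1757 and 1033 CPM, against 2968, 2192, 2719 and 2107 CPM in the matched cells. The uneven order of these ratios thus also reflects the comparison cells drawn. With 1 UMI the ratio was 1.03 in aliquot 1 and 0.703 in aliquot 2, and with 2 UMIs 0.675 and 1.14. The protease list was near 1 with 1 or 2 UMIs and reached 1.52 times (1.29 to 1.79) with 5 or more, and class I was at 1.08, 1.12, 1.26 and 1.23 times.

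**Figure D4:**
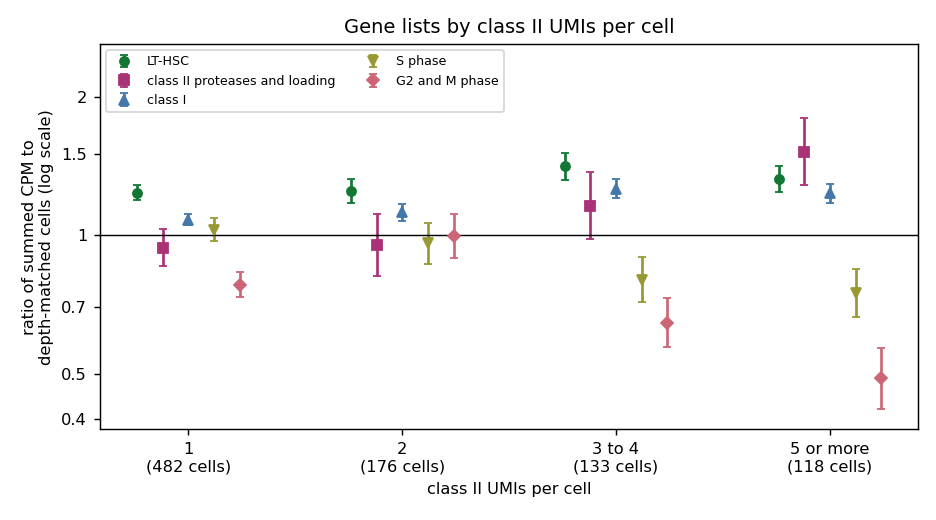
Ratio of summed CPM of 5 gene lists (log scale) in cells with 1, 2, 3 to 4 and 5 or more class II UMIs, over cells with 0 class II UMIs matched on depth, with 95% counting intervals. The classes hold 482, 176, 133 and 118 cells. G2 and M phase lies lowest, at 0.490 times, and class II proteases highest, at 1.52 times, in cells with 5 or more UMIs.

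Cells were also split by other genes, and the class II level, summed over the rule genes, was read as the outcome. The splitting genes belong to lists already compared above, and the cells come from the same pool. This is that comparison read in reverse, so it adds no independent support. In 247 cells with at least 2 UMIs of Procr, Fgd5, Slamf1 and Hoxb5, the class II level was 656 CPM (586 to 731), against 336 CPM (319 to 353) in 2675 cells with none of these. The levels were 487 CPM against 374 CPM in aliquot 1, with overlapping intervals, and 678 CPM against 318 CPM in aliquot 2. After thinning to 500 UMIs, 21.5% of the first set and 13% of the second held a class II UMI, and before thinning 38.1% and 24.7%. In 658 cells with at least 5 G2 and M phase list UMIs the class II level was 179 CPM (159 to 200), against 516 CPM (478 to 556) in 1125 cells with none. Median depths were 2338.5 UMIs in the dividing set and 981 in the other, and after thinning 6.99% and 16.7% of these cells held a class II UMI. In 46 cells with at least 2 UMIs of the erythroid factors Gata1 and Klf1 the level was 65.5 CPM (29.96 to 124).

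Reporter and other cells had overlapping intervals for class II. The class II level was 365 CPM (271 to 481) in 71 cells with a reporter UMI and 390 CPM (374 to 407) in the others. Members were 7 of those 71 (9.86%) and 12.6% of the others, all 7 in aliquot 2. After thinning, 16.9% (9.05 to 27.7%) of reporter cells and 14.3% (13.1 to 15.6%) of the others held a class II UMI. A cell without a reporter UMI may come from either sort.

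**Figure D5:**
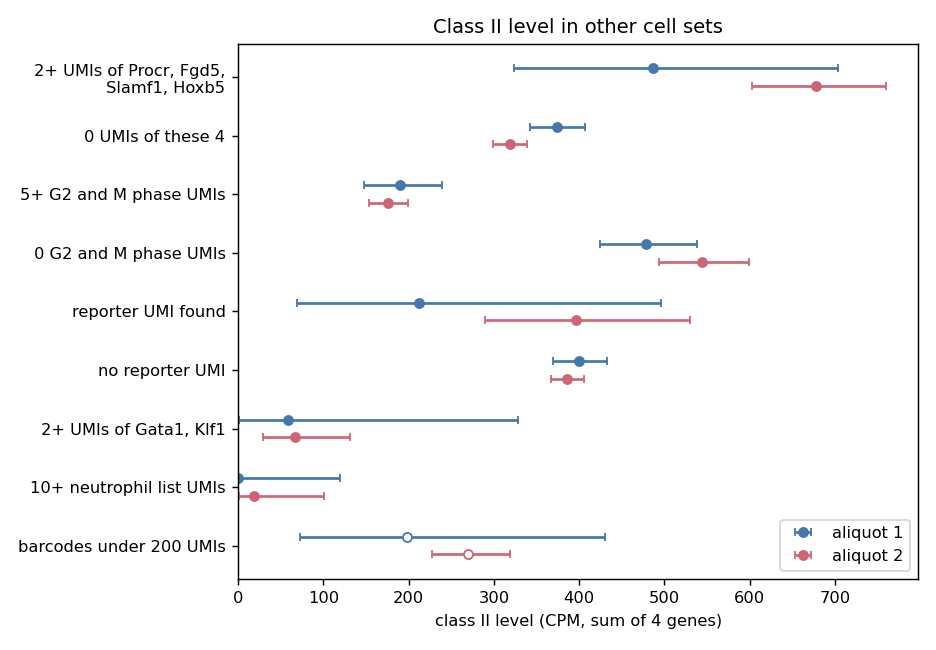
Class II level (summed CPM of Cd74, H2-Aa, H2-Ab1 and H2-Eb1) in cell sets chosen by other genes, by aliquot, with 95% Poisson intervals, and in barcodes under 200 UMIs (open points). Cells with at least 2 UMIs of Procr, Fgd5, Slamf1 and Hoxb5 stand at 487 and 678 CPM, and cells with at least 10 neutrophil list UMIs at 0 and 18.1 CPM.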

How the data were processed

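Per the labels, 2 inDrops libraries were made from aliquots of 1 pool of mouse bone marrow cells. The authors deposited raw UMI counts per gene and barcode, whole numbers with no normalization. RSEM 1.3.0, Bowtie 1.1.1, SAMtools 1.3.1 and GRCm38 appear in the submitters' processing notes, and their roles and the authors' cell filter are not given in the sources used here. A reporter feature (GFP) was left out of all totals.

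Each member was matched 1 to 1, without replacement and deepest first, to a cell with 0 UMIs of the 4 genes in its aliquot, within 20% of its depth. Ratios of summed CPM have exact conditional binomial intervals, levels exact Poisson intervals and shares exact Clopper-Pearson intervals. A few cells can hold most UMIs of a gene, so these intervals are too narrow for differences between cells, and n is 1 pool. Thinning drew 500 UMIs from each cell. Doublets were kept in the main values. Scrublet, in scanpy 1.11.5 with an expected rate of 6%, marked 9 cells of aliquot 1 (0.572%) and 16 of aliquot 2 (0.875%), 6 of them members.

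The members, the 20 gene lists and the rule for named genes were chosen with earlier results of these data known. The rule names every measured gene of the other class II and LT-HSC lists, the 4 genes with most UMIs of each other list, and the 10 ratios at either extreme among genes of at least 50 UMIs, at least 10 cells in the higher set, at least 10 UMIs in each aliquot and 1 direction in both. Other genes named were chosen after their values were seen: Ciita, Hoxb5, Dntt, Ctsh, Erap1, H2-T22, Iigp1, Gbp7, Gbp3, Jak2, Ifit2, Oasl2, Il12a, Cd52, Plek, F2r, Treml1, Gata1, Mki67, Nusap1, Ccnb2, Rrm2, Ung, Irf7, Cd68, Cd83, Irf8, Ly86 and the defining antigen-presenting cell markers.

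Promoter sequences are RefSeq's for GRCm38.p6, where 2 of the 4 rule genes and 8 of the 10 other class II genes were matched, and gene positions are from GENCODE vM21. Software was edgeR 4.0.16 in R 4.3.3 (TMM factors, as an alternative), pandas 2.3.3, scipy 1.17.1, matplotlib 3.10.9 and numpy 2.4.6 in Python 3.11.15. The ratio calculation was checked on simulated counts. Some genes that the rule names are not reported here.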

Additional observations from a re-analysis of the deposited data

How the results depend on the processing

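No paired analysis was possible because the series holds 1 group and no test was made. Medians below are log2 ratios. Medians of the LT-HSC list and of the other class II genes stayed above 0 under the alternatives listed here, except that none was computed for the thinned members or the 2-fold limit. The other class II median rested on 1 gene without replicate 2 and at a minimum of 100 UMIs, and on 3 genes among low-cycle cells. Without either aliquot, members numbered 138 to 289, genes higher 177 to 652, genes lower 235 to 755, the other class II median 0.38 to 0.44, the LT-HSC median 0.47 to 0.50 and the antigen-presenting cell ratio 0.950 to 1.12. Without depth matching, 1226 genes were lower of 10664, the LT-HSC median was 0.59 and the antigen-presenting cell ratio 0.880. With at least 3 UMIs, 251 members gave medians of 0.57 (other class II) and 0.61 (LT-HSC) and an antigen-presenting cell ratio of 1.1. UMIs of at least 2 of the 4 genes gave medians of 1.00 (other class II) and 0.52 (LT-HSC). Cells of at least 1000 UMIs gave an other class II median of 0.24. Leaving out cells with 3 or more UMIs of other cell lists left 254 members, medians of 0.44 (other class II) and 0.62 (LT-HSC) and an antigen-presenting cell ratio of 1.08. Thinned cells held 149 members, of whose 19 measured LT-HSC genes 3 were higher and 1 lower, against 11% of all genes higher. A minimum of 10 UMIs per gene gave 1412 genes higher, 1474 lower and an other class II median of 0.39, and a minimum of 100 gave 91 higher, 162 lower and 0.23. A 2-fold limit gave 157 higher and 175 lower. TMM factors gave 722 higher and 683 lower.

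Alternatives of 3 kinds were chosen after seeing the data. Without shared barcodes the LT-HSC median was 0.53. Without cells above 2 cell cycle list UMIs per 1000, 212 members gave 451 genes higher, an other class II median of 0.54 and an LT-HSC median of 0.24. Without the 1 comparison cell holding most of their UMIs, the antigen-presenting cell ratio was 1.1. Of the named gene ratios, 17 lay on the other side of 1 without replicate 2 and 3 without replicate 1. Among those past 1.5-fold this held for 1, Ctnnal1, which ranged from 1.00 without replicate 2 to 2.80 without replicate 1. The cause of these shifts was not tested.

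The limits are those of 1 pool. No value has a biological replicate, and sort and mouse line cannot be told apart in cells without a reporter UMI. The part of free RNA in single members was not tested. Genes under 30 UMIs, Ciita among them, were too shallow for a ratio.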
